A study of Mus musculus with 2 samples.

Results

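Chromatin remodeller genes are described here by the open chromatin at their promoters and along their bodies. The 10 genes, Smarca4, Smarca2, Smarca5, Chd1, Chd4, Chd7, Ino80, Ep400, Hells and Adnp, were chosen by name and role from the 21938 protein-coding genes of the annotation, with earlier results of these data known. All peaks that overlapped the range from 10 kb upstream of each gene start to the gene end, including those over the start, were taken. This gave 51 of the 116782 peaks of the deposited list, 49 of them with the summit inside the range. Accessible DNA, which the transposase Tn5 can enter and tag, was measured by ATAC-seq in mouse embryonic stem cells (mESCs) of a BL6/129 hybrid strain, grown in FBS/LIF. The cells carried EHMT2-dTAG-mcherry, in which the endogenous histone methyltransferase EHMT2 is fused to a degron and reported by mCherry, and had received the vehicle DMSO without the degrader for 24 h. The 2 samples were independent clones with 50000 cells each, and the list was called on both together. There is thus 1 condition and no value per clone, no difference between clones or conditions could be tested, and the intervals given below cover counting error only. Depth is known here only as the number of fragments over each summit, with a median of 9 over all peaks. A peak covered the start of 4 of 6 pluripotency genes looked up (Pou5f1, Nanog, Klf4 and Zfp42, but not Sox2 or Esrrb), and of 2 of 6 fibroblast genes (Thy1 and Twist1). The share over all protein-coding gene starts was 59.2%, so these counts do not identify the cells. Fold enrichment over background was 2.83 at Pou5f1, 4.12 at Nanog, 5.68 at Klf4 and 15.9 at Zfp42. It was 5.45 at Thy1 and 6.59 at Twist1. The study grew its mESCs on feeder fibroblasts, whose part in the peaks was not tested.

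Remodeller ATPases use ATP to slide, evict or exchange nucleosomes and so set which DNA other proteins can reach. SMARCA4 and SMARCA2 are alternative motors of the SWI/SNF (BAF) complexes, SMARCA5 is an ISWI motor that spaces nucleosomes, and CHD1, CHD4 and CHD7 carry chromodomains, CHD1 acting in transcribed genes, CHD4 in the NuRD repressor complex and CHD7 at enhancers. INO80 and EP400 exchange histone variants, and HELLS supports DNA methylation of repeats. In mESCs, SMARCA4-containing BAF is a known part of the pluripotency network. ADNP is no ATPase, whatever the common label of these genes: it is a zinc finger and homeodomain protein that joins CHD4 and HP1, so the genes are 9 ATPases and 1 partner.

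The reference sequences before 5 of the gene starts are shown because they hold short letters known from promoter-binding factors, which are taken up again after the peaks. Each is from mm10, on the strand of the gene, and runs from 160 bases before the start to the base before it. For Adnp and Hells, where a match crosses the start, it goes on to base 3 of the transcript. Capitals mark the matches: GCATGCGC for NRF1, CTCGCGAG for the element bound by BANP, GGGGCGGGG for the GC box of SP factors and AANATGGCG for YY1, each on either strand. Smarca4 is at chr9:21616009-21616168 (+), Smarca5 at chr8:80739498-80739657 (−), Chd4 at chr6:125095821-125095980 (+), Adnp at chr2:168207110-168207272 (−) and Hells at chr19:38930755-38930917 (+).
Smarca4: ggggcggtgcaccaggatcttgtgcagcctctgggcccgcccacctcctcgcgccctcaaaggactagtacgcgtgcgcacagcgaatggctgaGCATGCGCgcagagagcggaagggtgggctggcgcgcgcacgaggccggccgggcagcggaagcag
Smarca5: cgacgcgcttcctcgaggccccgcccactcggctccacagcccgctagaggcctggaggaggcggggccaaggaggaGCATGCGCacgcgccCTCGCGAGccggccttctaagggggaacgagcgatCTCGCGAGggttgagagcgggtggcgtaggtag
Chd4: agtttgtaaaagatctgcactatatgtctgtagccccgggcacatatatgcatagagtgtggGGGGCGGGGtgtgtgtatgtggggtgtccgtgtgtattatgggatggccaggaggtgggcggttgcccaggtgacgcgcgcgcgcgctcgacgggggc
Adnp: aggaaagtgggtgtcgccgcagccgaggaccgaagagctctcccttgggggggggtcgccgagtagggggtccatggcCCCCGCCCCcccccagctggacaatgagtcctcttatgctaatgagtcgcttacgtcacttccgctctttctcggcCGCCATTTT
Hells: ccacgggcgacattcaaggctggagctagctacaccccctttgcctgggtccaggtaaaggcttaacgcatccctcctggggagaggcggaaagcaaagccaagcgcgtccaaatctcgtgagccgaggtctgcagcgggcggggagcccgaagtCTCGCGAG

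All 10 genes had an ATAC peak over the gene start, against 59.2% of all protein-coding gene starts, and 8 had one with a −log10 q-value of at least 10, against 45.0%. Chd4 and Chd7 were the 2 below that value, with 9.84 and 9.0. Fold enrichment compares the fragments stacked over a peak's summit with a background, and 1 is added to both before the division. The background is that of the surroundings, but not below a genome-wide level of 1.16 fragments, at which 37.0% of all peaks lay. It ran from 5.20 to 15.5 over the 10 start peaks, with a median of 7.76, and the median over all 12990 start peaks was 8.68, with quartiles of 6.12 and 11.6. The 10 genes thus spread over the range of start peaks, with 4 above the overall median and 6 below it. By fragments over the summit, 5 lay above the overall median of 34, and the median of the 10 was 35.

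**Figure D1:**
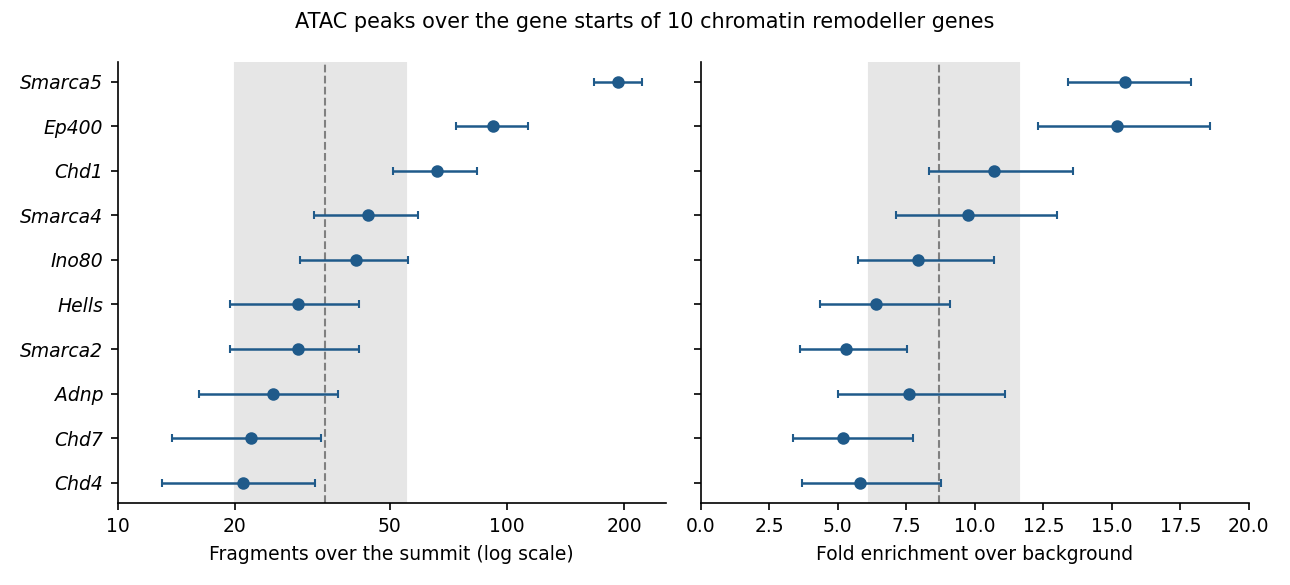
Fragments over the summit (left, log axis) and fold enrichment over the local background (right) of the peak over each gene start, ordered by fragments. Bars are exact Poisson 95% intervals of the fragment number, at a fixed background for the fold, and the dashed line and grey band are the median and quartiles of all start peaks of protein-coding genes. Smarca5, Ep400 and Chd1 lie above the band in fragments, with 193, 92 and 66.

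The start peak of Smarca4 was higher in fold than that of Smarca2, but their fragment numbers could not be separated. Smarca4 (ENSMUSG00000032187.16) starts at position 21616169 of chromosome 9, on the plus strand. Its start peak at chr9:21615178-21616743 had 44 fragments over the summit (95% interval 32.0 to 59.1) with a −log10 q-value of 29.2, and its fold enrichment of 9.74 exceeded 60.1% of all start peaks. Smarca2 (ENSMUSG00000024921.17) starts at position 26605050 of chromosome 19, and its start peak at chr19:26604666-26605266 was, at 601 bp, the narrowest of the 10 (wider than 7.04% of start peaks). It had 29 fragments (19.4 to 41.6) over a background of 4.66, and its fold of 5.30 exceeded 17.1% of start peaks. A second Smarca2 peak, 1319 bp wide with 18 fragments, had its summit 1965 bp downstream and covered another annotated start of the gene. The ratio of Smarca4 to Smarca2 fragments was 1.52, with a 95% interval from 0.928 to 2.51 that includes 1. The background was 3.62 fragments at Smarca4.

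Smarca5 had the highest start peak of the 10 genes. It starts at position 80739497 of chromosome 8 on the minus strand (ENSMUSG00000031715.14), and the peak at chr8:80738429-80740048 had 193 fragments over its summit (167 to 222), at a −log10 q-value of 155 and 15.5-fold enrichment. Counting Smarca5 itself, 35 of the 12990 start peaks had at least as many fragments. The background, 11.5 fragments, was also high, so that the fold exceeded 93.9% of start peaks and the fragment number 99.7%. Start peaks on chromosome 8 had a median of 49 fragments and a median background of 4.50, against medians of 25 to 42 and 2.40 to 3.45 on the other autosomes. Within chromosome 8, the Smarca5 peak exceeded 98.6% of 738 start peaks in fragments and 90.2% in fold. What the chromosome adds to the value was not tested.

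The promoter of Smarca5 was also the only one of the 51 regions with near-copies in the genome. The 501 bp around its summit aligned to 6 other places, counting alignments that span 50% or more of the query at 90% identity or more. All were on chromosome 4 between positions 145463589 and 147739235, with identities from 93.2% to 95.8%. Each lies within 1 kb of the annotated start of a processed pseudogene, Smarca5-ps, Gm13231, Gm13034, Gm13140, Gm13135 or Gm13136. Processed pseudogenes are retrocopies of an mRNA, but the alignments also take in between 236 and 308 bases before the annotated start of Smarca5. All 6 copies held GCATGCGC and at least 1 CTCGCGAG, where Smarca5 has 1 and 2, and held 6.91 to 8.43 CpGs per 100 bases against 10.6 at Smarca5. A peak lay over 0 of the 6 copies. Reads that match several places equally well were placed at random among them, and reads in ENCODE High Signal Regions had been removed. Whether these steps bear on the copies was not tested.

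Of the 3 CHD genes, Chd1 had the strongest start peak. Chd1 (ENSMUSG00000023852.14) starts at position 15704967 of chromosome 17, and its peak at chr17:15704184-15706178 had 66 fragments (51.0 to 84.0) and a fold of 10.7. Chd4 (ENSMUSG00000063870.12) starts at position 125095981 of chromosome 6, and its peak at chr6:125095358-125097344 had 21 fragments (13.0 to 32.1) and a fold of 5.82. Chd7 (ENSMUSG00000041235.12) starts at position 8690406 of chromosome 4, and its peak at chr4:8689966-8691019 had 22 fragments (13.8 to 33.3) and a fold of 5.20, the lowest of the 10 genes. Chd1 had 3.14 times the fragments of Chd4 (95% interval 1.90 to 5.41) and 3.0 times those of Chd7 (1.83 to 5.11), whereas Chd7 and Chd4 could not be separated (ratio 1.05, 0.550 to 2.00). The Chd1 and Chd4 peaks were the widest, with 1995 and 1987 bp, so that Chd4 combined a wide peak with few fragments over its summit. The start of the microRNA gene Mir7045 also lies under the Chd4 start peak.

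Adnp (ENSMUSG00000051149.15), whose product binds CHD4, starts at position 168207112 of chromosome 2 on the minus strand. Its peak at chr2:168206781-168207727 had 25 fragments (16.2 to 36.9) and a fold of 7.60, and the ratio to Chd4 was 1.19 (0.640 to 2.24). Its relative Adnp2 had 107 fragments at its start, 4.28 times those of Adnp (2.75 to 6.91), with a fold of 12.0.

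Ino80 and Ep400, the motors of related complexes, stood apart from each other. Ep400 (ENSMUSG00000029505.17) starts at position 110770717 of chromosome 5 on the minus strand, and its peak at chr5:110770099-110771267 had 92 fragments (74.2 to 113) and a fold of 15.2, above 92.9% of start peaks. Ino80 (ENSMUSG00000034154.15) starts at position 119477687 of chromosome 2, also on the minus strand, and its peak at chr2:119476660-119478352 had 41 fragments (29.4 to 55.6) and a fold of 7.92. The ratio of Ep400 to Ino80 fragments was 2.24 (1.54 to 3.33). The Ep400 peak is shared with the start of the antisense gene Gm15559 on the other strand, 232 bp away, and the fragments of 1 start cannot be told apart from those of the other. Among the other 9 genes, the nearest start on the opposite strand was at least 2593 bp away.

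Hells (ENSMUSG00000025001.11) starts at position 38930915 of chromosome 19. Its peak at chr19:38930048-38931414 had 29 fragments (19.4 to 41.6) and a fold of 6.41, which exceeded 27.8% of start peaks. The order by fragments was therefore Smarca5, Ep400, Chd1, Smarca4, Ino80, Hells and Smarca2 (equal), Adnp, Chd7 and Chd4. Smarca5 had 2.10 times the fragments of Ep400 (1.63 to 2.72), although their folds, 15.5 and 15.2, were nearly equal. Ep400 exceeded Chd1 (1.39, 1.01 to 1.94) and Chd1 exceeded Smarca4 (1.50, 1.01 to 2.25) by ratios whose intervals only just leave out 1. For the other 6 of the 9 neighbouring pairs, the interval included 1, so the order from Smarca4 down to Chd4 is not resolved step by step at this depth.

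The position of the summit relative to the start varied. It lay upstream of the start in 7 genes and downstream in 3, Smarca2 by 34 bp, Hells by 96 bp and Chd4 by 234 bp. In 8 genes it was within 300 bp of the start, and the exceptions were Chd1, with 303 bp upstream, and Ino80, with 429 bp. Over all start peaks, 45.6% of the summits were upstream and 84.4% within 300 bp. Of the 10 peaks, 7 were wider than the median start peak of 1060 bp, and 8 had a background above the median of 2.96 fragments.

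Along the genes, the number of listed peaks differed between genes of similar length. Chd7, the longest with 177 kb, had 15 peaks, and Smarca2, with 173 kb, had 8. This difference rests on weak peaks, and no interval was computed for it. No Chd7 peak reached a −log10 q-value of 10, and at Smarca2 only the start peak did, with 11.7. Without this limit, Smarca5 had 5 peaks, and Chd1, Adnp and Hells had 4 each. Smarca4, Chd4 and Ino80 had 3 each, and Ep400 had 2 despite a length of 106 kb. Per 10 kb of range, the number was highest at Adnp (1.11) and lowest at Ep400 (0.172), and these exceeded 78.2% and 17.9% of protein-coding genes. The median over all protein-coding genes was 0.632. Of the 3 genes with the highest start peaks, Ep400 had the sparsest range of the 10, Chd1 lay above 40.3% of genes, and Smarca5 had 0.981 peaks per 10 kb, above 73.2% of genes. Ino80 and Smarca4, with start peaks inside the quartiles, were also sparse per 10 kb, above 22.0% and 24.8% of genes. By number of peaks, both exceeded 58.1% of genes. The densities rest on few peaks. Over the 10 genes, the median share of genes exceeded in density was 46.8%. The medians of the single genes' lower and upper counting bounds were 17.6% and 84.6%, which are not an interval of that median. Chd4 had the highest share of its range in peaks, 10.4% of bases, above 85.9% of genes.

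**Figure D2:**
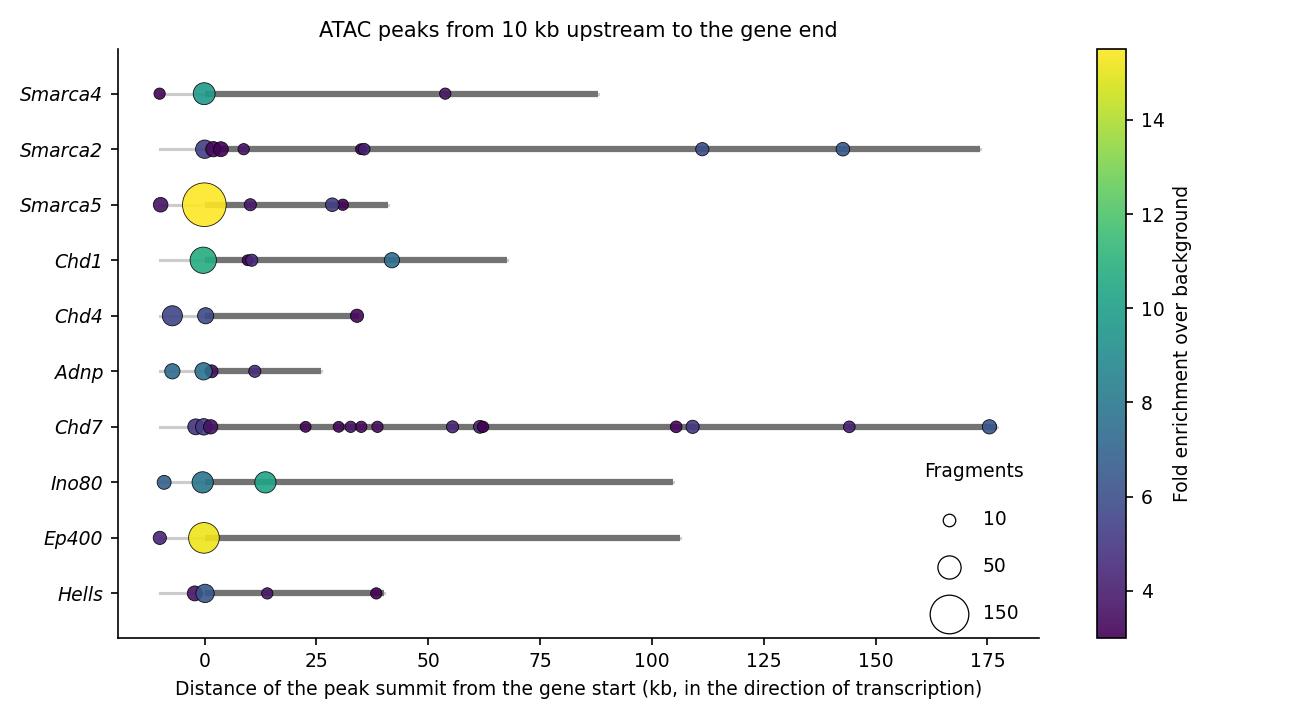
Peaks of the 10 genes by distance of the summit from the gene start, in kb in the direction of transcription. Dark lines are gene bodies and light lines the 10 kb upstream, circle area grows with fragments over the summit and colour gives fold enrichment. Most circles away from the start are small and dark, Chd7 holds 15, and the Ino80 circle at 13.6 kb is brighter than that at its start.

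Of the 51 peaks, 10 covered the gene starts, 6 others lay within 1 kb of another annotated transcript start of the same gene, and 35 lay further away. Of these 35, 23 were in introns, 8 upstream and 4 in exons. They had a median fold of 3.70 and a median of 9 fragments, the same medians as the 49419 such peaks of all protein-coding genes, and 21 of them rested on at most 9 fragments. A −log10 q-value of at least 10 was reached by 4 of the 35, which is 1 each at Ino80, Chd4, Chd1 and Adnp, and by 16.4% of all such peaks. Only 1 of the 35, upstream of Ino80, was at least 50% repeat-masked (50.6%), against 14.8% of all such peaks, and by the same search as for Smarca5 none of the 35 had a second copy.

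The strongest peak away from a start was in intron 1 of Ino80, 13594 bp downstream of the start, at a fold of 10.3 and a −log10 q-value of 28.6. It had 41 fragments, the same number as the start peak of Ino80, over a lower background (3.08 against 4.30). A further Ino80 peak lay 9047 bp upstream with a fold of 6.76 and 14 fragments. Chd1 had a peak in intron 17, 41882 bp from the start, with a fold of 7.54 and 18 fragments. At Adnp, a peak 7210 bp upstream, with 18 fragments and a fold of 7.36, came close to the start peak in fold. At Chd4, the peak 7207 bp upstream had 36 fragments against 21 at the start, with similar folds of 5.62 and 5.82, and is 20854 bp from the nearest other protein-coding start, that of Lpar5.

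The 121 bases around the summits of the 3 distal peaks of highest fold are given on the strand of each gene, since these peaks carry the values above. They lie at chr2:119464033-119464153 (−, Ino80, intron 1), chr17:15746789-15746909 (+, Chd1, intron 17) and chr2:168214262-168214382 (−, upstream of Adnp), and capitals mark the letters of an AP-1 site, TGACTCA on either strand. They hold 2, 4 and 0 CpGs, in contrast to the promoters above.
Ino80 intron 1: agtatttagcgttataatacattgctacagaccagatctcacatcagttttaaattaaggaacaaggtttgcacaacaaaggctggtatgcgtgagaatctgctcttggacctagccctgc
Chd1 intron 17: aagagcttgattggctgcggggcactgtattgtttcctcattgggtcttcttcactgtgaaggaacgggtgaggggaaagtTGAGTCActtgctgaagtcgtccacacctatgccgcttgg
Adnp upstream: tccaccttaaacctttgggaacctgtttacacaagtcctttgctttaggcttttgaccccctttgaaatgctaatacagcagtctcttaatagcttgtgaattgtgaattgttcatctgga

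Chd7 held 12 of the 35 distal peaks, 9 of them in introns. Its highest distal fold, 6.30 with 15 fragments, was in the last exon, 175456 bp from the start, and exceeded the fold of the start peak but not its 22 fragments. The next were 109105 bp from the start in intron 3 (fold 5.00, 12 fragments) and 1985 bp upstream (fold 4.82, 20 fragments). The other distal Chd7 peaks had 6 to 9 fragments. Over the 10 genes, the distal peak of highest fold thus exceeded the start peak at Ino80, by 2.37, and at Chd7, by 1.10, and was lower elsewhere, by only 0.238 at Adnp and 0.197 at Chd4. By fragments, Chd4 was the only gene with more at a distal peak than at its start, and the ratio of 1.71 had a 95% interval from 0.974 to 3.09. The ratio of the distal peak with most fragments to the start peak lay below 1 with its whole interval at Smarca5 (0.0829), Ep400 (0.130), Smarca4 (0.159) and Chd1 (0.273), the 4 genes of highest start fold. At the other 6 genes the interval included 1. Start fragments are the denominator of this ratio, and the same 4 genes had the most of them. The split therefore follows in part from how the ratio is built. Smarca4, by contrast, had 2 distal peaks in a range of 98.1 kb, in intron 21 at 53800 bp (fold 3.70, 7 fragments) and 10060 bp upstream (fold 3.10, 7 fragments). The latter summit, like that of the Ep400 peak given below, lies just outside the range, which the peak reaches with its edge. Distal folds at Smarca2 reached 4.16, 35666 bp from the start, at Smarca5 3.82, at Hells 3.66 at 2200 bp upstream and 3.70 at 14006 bp downstream. The only peak of the Ep400 range besides that of its start covered the start of Pus1, 10009 bp upstream, with a fold of 4.36 and 12 fragments. The Smarca5 peak with a fold of 3.82 covered the start of Gm45872.

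Few alternative starts lay under a peak of their own, both at the 10 genes and over all protein-coding genes with a start peak. The 10 genes have 92 annotated transcript starts, of which 35 (38.0%) lay under a peak. The share was 50% over all protein-coding genes (46742 of 93513). Over protein-coding genes with a start peak, as all 10 have, it was 63.5%. Under a peak with a −log10 q-value of at least 10 lay 22 of the 92, against 38.0% over all protein-coding genes. The peak over the gene start itself held 29 of the 35. Of the other 63 starts, 6 (9.52%) lay under another peak, 5 at Smarca2 and 1 at Smarca5, against 13.5% of such starts over all protein-coding genes with a start peak. Smarca2 has 42 of the 92 starts, and 8 of these 42 lay under a peak. The share over the 10 genes thus depends much on Smarca2. Its start peak covered 3 of the 42, and the peak 1965 bp downstream covered 1. A peak 142706 bp downstream, in intron 27 of the long transcript, covered 4 starts of short protein-coding transcripts with a fold of 6.47 and 13 fragments. This exceeded the fold of 5.30 at the gene start, though not its 29 fragments. The background of that distant peak was 1.16, the lowest over all peaks, against 4.66 at the gene start. A peak 111267 bp downstream in intron 26 (fold 6.01, 12 fragments) had its summit 202 bp from an annotated start but covered none. At Smarca5, a peak 28543 bp downstream in intron 15 (fold 5.22, 13 fragments) covered the start of a transcript with a retained intron. At Chd7, a peak in intron 1, 1354 bp downstream, had 15 fragments and a fold of 3.60, with its summit 395 bp from an annotated start, and also covered none.

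The start windows, from 250 bases before to 50 after the start, were rich in CpG. The ratio of observed to expected CpG was above the median of windows with a start peak (0.745) in 9 of the 10 genes, and so was the GC content (median 60.7%) in 9. The gene with a low CpG ratio was Adnp (0.578, with 17 CpGs), and the one with a low GC content was Chd4 (57.0%). Windows without a start peak had a median ratio of 0.183.

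The letters of promoter-binding factors were searched in the same windows of 8 of the genes (without Chd1 and Chd7), on both strands, and were partly chosen after the sequences had been read. CTCGCGAG, the core of the element recognised by BANP, was found in 3 of the 8 genes (Smarca5, Adnp and Hells), in 1.21% of all protein-coding windows and in 1.97% of those with a start peak, as all 8 genes have. The shares below are given in the same order, over all windows and over those with a start peak. At Smarca5 it occurred at 68 and 33 bases before the start, at Adnp 239 before, and at Hells across the start. GCATGCGC, the core for NRF1, was found at Smarca4 and Smarca5 and in 3.71% and 5.17% of windows. GGGGCGGGG, the GC box, was found at Chd4 and Adnp and in 14.5% and 22.4%. AANATGGCG, for YY1, itself a subunit of INO80, lay across the start of Adnp and is in 2.91% and 4.45%. CCAAT, for NF-Y, was found at Chd4 and Ino80 and is in 39.0% and 38.7%. CCGGAAGT for ETS factors (4.70% and 7.31%), TGACGTCA for CREB (2.43% and 3.47%) and TATAAAA for the TATA box (4.88% and 2.38%) were found at none of the 8 genes, and Smarca2 and Ep400 held none of these motifs. In the 300 bases centred on the summits instead, CTCGCGAG was found in 4 genes, with Smarca2 added, and in 1.86% of start peaks, and the letters for NRF1 stayed at Smarca4 and Smarca5. Those for YY1 and NF-Y were then found at none of the 8 genes, the GC box at Chd4 alone and the ETS letters at Ino80, so that the matches of a motif in a gene fell from 10 to 8.

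**Figure D3:**
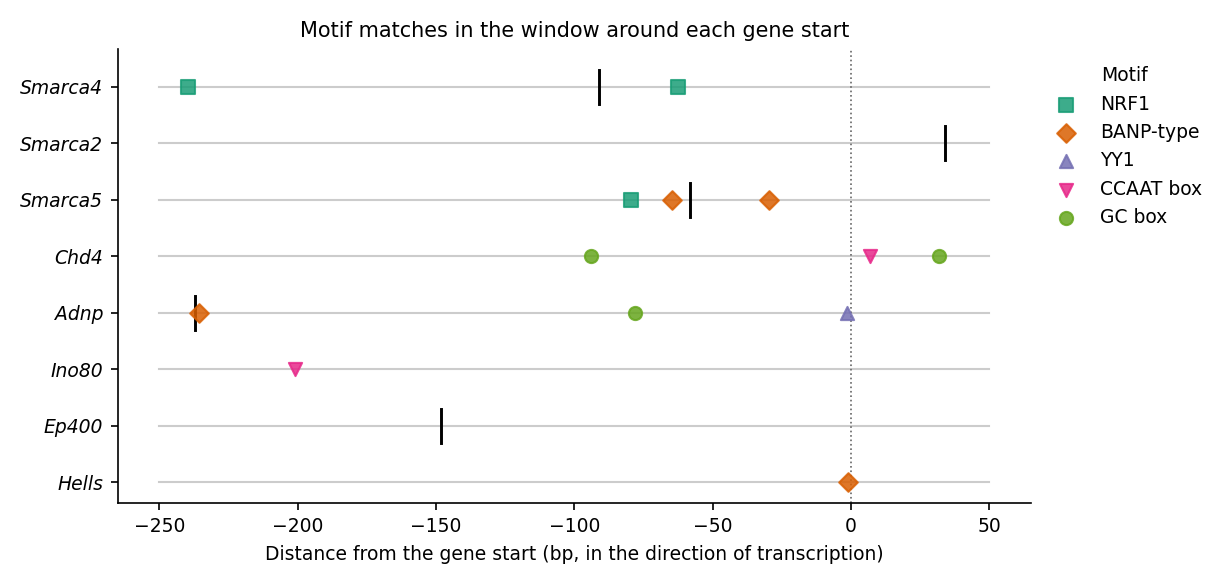
Matches of 5 motifs in the window from 250 bases before to 50 after the start of 8 genes, by distance from the start in bp. Symbols are motif centres and black bars are peak summits, which lie outside the window for Chd4, Ino80 and Hells. BANP-type matches lie next to the summit at Smarca5 and Adnp.

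In the 301 bases at the summits of the 35 distal peaks, ATGCAAAT, the octamer of POU factors, was found in 5 (2 at Hells and 1 each at Smarca4, Smarca2 and Chd7), against 2.87% of all 49419 such windows. TGACTCA of AP-1 was found in 4 (7.31% of all), GGGTGTGG of KLF factors in 3 (4.97%), TCAAGGTCA of ESRRB in 1, at Chd7 (1.27%), and AGGGGGC or AGGTGGC, parts of the CTCF motif, in 6 (16.3%). The 5 octamer windows rest on peaks with 7 to 20 fragments. These letters were chosen after the peaks had been seen and describe the sequence only.

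The relatives and partners of the 10 genes were looked up in 8 lists of 107 genes in all, of which 92 had a peak over the start (86.0%, against 59.2% of all protein-coding genes) with a median fold of 9.42. Among 22 other SNF2-family ATPases, 20 had a start peak, with a median fold of 11.4. Shprh, a ubiquitin ligase with an ATPase domain, had the highest fold (18.3) and Smarca1, the ISWI paralog of Smarca5 on the X chromosome, the lowest (5.50). Smarca5 had 17.5 times the fragments of Smarca1 (193 against 11, 95% interval 9.59 to 35.7), at folds of 15.5 and 5.50. Start peaks on chromosome 8, which holds Smarca5, ran high in fragments, with a median of 49. What the chromosomes add to this ratio was not tested. The 2 without a start peak were Chd3 and Chd5, the paralogs of Chd4 in NuRD. The nearest peak was 257 bp from the start of Chd3, and another annotated start of Chd5 was under a peak. Chd1 had 1.65 times the fragments of its paralog Chd2 (66 against 40, 1.10 to 2.51).

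Of 29 BAF and PBAF subunit genes, 23 had a start peak, with the lowest median fold of the 8 lists (7.42). Brd9 had the highest fold (14.1) and Arid1a, the large DNA-binding subunit, the lowest (3.69, 17 fragments). Smarcd2, Actl6a, Bcl7a, Bcl11a, Phf10 and Bicral had no peak over the start of the gene record. Among 11 ISWI partners, 9 had a start peak, from 7.21 at Rbbp7 to 14.1 at Rsf1, and Baz1a and Baz2a did not. Of 12 NuRD subunits, 11 had one, from 3.54 at Mta1 to 14.3 at Hdac2, with Cdk2ap1 without. Adnp2, Pogz and the HP1 genes Cbx1, Cbx3 and Cbx5 all had one (5 of 5), from 6.25 at Cbx1 to 12.0 at Adnp2.

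Of 14 INO80 subunits, 11 had a start peak, from 4.91 at Ino80d to 12.8 at Actr5, and Ruvbl2, Ino80b and Actl6a did not. Of 16 TIP60 subunits, which work with EP400, 13 had one, from 7.89 at Dmap1 to 17.9 at Epc1, and Morf4l2, Mrgbp and Ruvbl2 did not. The partners of HELLS, Cdca7, Zbtb24 and Dnmt3b, all had one, from 4.97 at Dnmt3b to 9.29 at Zbtb24. A missing start peak often concerned the start of the gene record only. With any annotated transcript start, an alternative chosen after these genes had been seen, 103 of the 107 genes had a peak, against 66.6% of all protein-coding genes, and the 4 left without were Chd3, Smarcd2, Bcl11a and Phf10. The nearest peak was 100 bp from the gene start at Phf10, 257 bp at Chd3 and 335 bp at Bcl11a, but 35115 bp at Smarcd2. Actl6a, for example, then had a fold of 14.5 with 106 fragments.

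**Figure D4:**
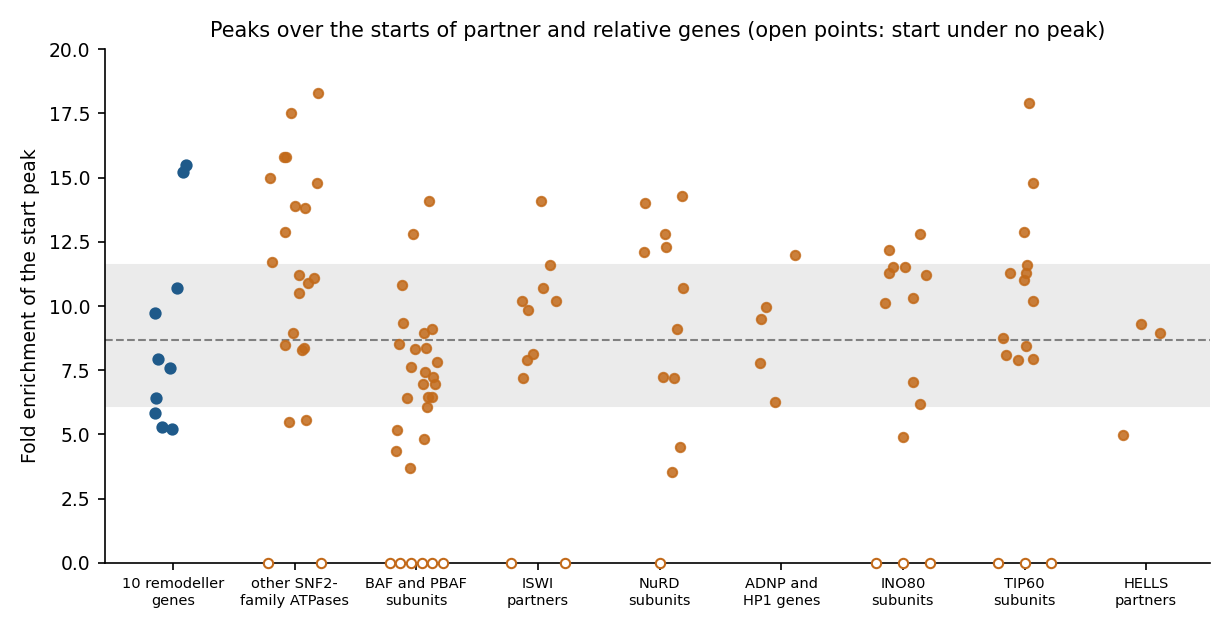
Fold enrichment of the peak over the gene start for the 10 remodeller genes (blue) and for 8 lists of relatives and partners (orange), 1 point per gene, with sideways jitter. Open points at 0 mark genes whose start is under no peak, and the dashed line and grey band are the median and quartiles of all start peaks. The other SNF2-family ATPases reach 18.3 and have 2 open points, the BAF and PBAF subunits have 6.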

How the data were processed

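ATAC-seq was performed by the authors on 2 clones of EHMT2-dTAG mESCs. Per the methods and the submitters' notes, reads were aligned to mm10 with STAR 2.7.10, duplicates were removed with Picard 2.26.0, fragments were shifted by +4 and -5 bp for the Tn5 cut, and MACS2 2.2.6 called 1 list on both clones merged. The fold enrichment, a ratio deposited by the authors, is pileup plus 1 over background plus 1. The authors also deposited a −log10 p-value and a −log10 q-value per summit. The deposited score, 10 times the −log10 p-value, was not used further, and the deposited summit offset gave the summit position. Fragment numbers were calculated back from fold and p-value, and came out whole (relative tolerance 0.001) for 116778 of 116782 peaks. On 19662 simulated peaks 99.9% were recovered. Genes came from GENCODE release 21 of mouse (mm10), while the study used release 25. The start is that of the gene record. Promoters and repeats were read from GRCm38.p6. The start sequences of Chd1 and Chd7 are not reported here. Intervals of fragment numbers are exact Poisson 95% intervals, and ratios carry exact conditional binomial intervals. For medians over the 10 genes, the bounds given are medians of the single genes' bounds and not an interval of the median. No p-value was computed. Copies were searched with BLAST 2.17.0. Calculations used Python 3.11.15, NumPy 2.4.6, pandas 2.3.3 and SciPy 1.17.1. Members and lists were chosen with earlier results of these data known. Named were all 10 start peaks, the highest distal peak of each gene, the 5 highest of all, the genes of each list without a start peak and with the highest and lowest fold, and other genes whose start lies under a member's peak. The 5 peaks on the mitochondrial genome or another sequence were left out of start and range counts. Signal tracks and library totals were not analysed here.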

Additional observations from a re-analysis of the deposited data

How the results depend on the processing

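No paired analysis was possible because the peaks were called on the 2 clones together, and for that reason no clone could be left out either. Of 27 alternatives for 12 main results, 18 were counted as the same and 9 as moved. A count was the same within 1.5 times, and a value inside its counting interval. For medians over the 10 genes, the medians of the single genes' bounds took the place of that interval. Of these 9, 2 were counted so without a check against an interval. They were the median in fragments instead of fold, which has another unit, and the CpG ratio over the whole start peak. With a −log10 q-value of 10 as minimum, 4 values moved. This took the share of protein-coding starts with a peak to 45.0%, the peaks in the 10 ranges to 12, the transcript starts under a peak to 22 and the mostly repeat-masked distal peaks to 0, which at 90% masked bases were also 0. With summits within 500 bp of the start, the share was 57.4%. With 50 kb upstream, the ranges held 82 peaks, as more sequence was searched. By fragments instead of fold, the median of the 10 start peaks was 35.0 fragments, above the median of all start peaks, while by fold it was below, and the median share of start peaks below the 10 went from 41.1% to 50.9%. The side of the middle thus turns with this choice, and the 10 are therefore not placed on either side. For the share by fold, the medians of the single genes' bounds were 17.9% and 69.5%. Both values lie between them, but they are not an interval of the median. Over the whole start peak, the median CpG ratio was 0.861 instead of 0.920. The cause was not tested where no construction is named. Of 44 alternatives for single genes or lists, 2 moved the value, as the share of start peaks below Smarca2 rose from 17.1% to 41.7% and that below Smarca5 from 93.9% to 99.7% when ranked by fragments. Depth limits the distal peaks most, since many rest on under 10 fragments.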
